A study of Mus musculus with 262 samples.

Results

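The chemokine genes of the mouse genome and the genes of their receptors were followed through every expression table of a study of the renal collecting duct. The set held all gene symbols beginning with Ccl, Ccr, Cxcl or Cxcr and a digit, together with Pf4, Ppbp, Cx3cl1, Cx3cr1, Xcl1 and Xcr1, without pseudogene symbols ending in -ps. That gave 60 genes, 41 ligands and 19 receptors, of 47069 gene rows in the TPM tables and 24111 in the count table. The set was drawn by symbol alone, though earlier results of these data were known when it was chosen. TPM is a transcript level corrected for transcript length and library size. The samples were 235 single cells, 8 bulk libraries of sorted cells and 19 single microdissected tubules, all from kidneys of 2-month-old male mice. The single cells, caught one per chamber on Fluidigm C1 chips, carried the authors' names: 87 type A intercalated, 23 type B intercalated, 74 principal, 19 proximal tubule and 32 non-epithelial cells. They came from C57BL/6 mice and had been sorted with the lectin DBA, with antibody to c-Kit, with both, or, for 17 of the 23 type B cells, with the lectin PNA. Of the bulk libraries, 2 were c-Kit-sorted and 2 DBA-sorted cells of C57BL/6 mice, and 2 GFP-positive and 2 GFP-negative cells of strain Atp6v1b1GFP, whose name holds that of a proton pump gene of intercalated cells; what drives the GFP is not stated. The tubules, from C57BL/6 mice, were 11 collecting ducts of the cortex (CCD) and 8 thick ascending limbs of the cortex (cTAL).

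Chemokines are small secreted proteins that guide the movement of leukocytes by binding receptors coupled to G proteins. Inflammatory members are made on demand by macrophages, dendritic cells and injured epithelium, while homeostatic members such as Cxcl12 are made steadily by tissue cells. In the kidney, resident macrophages and dendritic cells lie against the tubules and carry receptors such as Cx3cr1 and Ccr2.

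The labels could be checked against marker genes. All 14 macrophage and dendritic cell markers on the list, among them Csf1r, C1qa and Cd74, reached 1 TPM in at least 1 non-epithelial cell, and their summed level there had a median of 46326 TPM (range 15179 to 111038). In type A, type B, principal and proximal tubule cells the median of this sum was 32.5, 0.03, 10.2 and 156 TPM. The non-epithelial cells reached 1 TPM for 3 of 10 T and NK cell, 1 of 5 mast cell and 1 of 5 neutrophil markers. Epithelial markers were met in them too. The summed list of 5 genes shared by intercalated cells had a median of 3016 TPM there. Aqp2, a principal cell gene, reached 1 TPM in 15 of 32 non-epithelial, 58 of 87 type A and 14 of 19 proximal tubule cells. Markers were thus not confined to the type they name. The median number of genes at 1 TPM or more lay between 2704 and 3253 per cell in the 5 types. In the GFP count table, 35530885 to 40815091 reads per library fell in genes. No source says whether replicates came from separate animals, so the p-values below measure only the spread between these samples, which may be technical. Since no animal is named for any cell, each cell type counts as 1 sample, and levels are compared between types without a test. The types were named from the same transcriptomes, which may have included these genes.

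Many of the genes lie in tandem clusters (GENCODE annotation of GRCm38.p6). Ccl2, Ccl7, Ccl11, Ccl12, Ccl8 and Ccl1 lie at chr11:82035571-82305690, and Ccl5, Ccl9, Ccl6, Ccl3 and Ccl4 at chr11:83525778-83664683. Cxcl5, Ppbp, Pf4, Cxcl3, Cxcl15, Cxcl1 and Cxcl2 lie at chr5:90759360-90905938. Promoter sequence is shown for Cxcl1 and Cxcl2, neutrophil attractants of the chromosome 5 cluster that were lower together in the GFP comparison. It is the 100 bases before the start of each gene (RefSeq, GRCm38.p6, + strand), Cxcl1 at chr5:90891145-90891244 and Cxcl2 at chr5:90903799-90903898. Capitals mark matches on either strand to a form of the NF-kB motif, GGG, then 2 bases of any kind, then TTTCC.
Cxcl1: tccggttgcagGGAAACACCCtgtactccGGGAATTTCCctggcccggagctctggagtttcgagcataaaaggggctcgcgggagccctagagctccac
Cxcl2: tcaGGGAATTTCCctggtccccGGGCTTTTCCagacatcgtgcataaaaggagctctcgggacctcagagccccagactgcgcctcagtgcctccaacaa
Each holds 2 matches. Over the 250 bases before the start, 6 of 52 windows of the chemokine genes held a match (Ccl20, Ccl9, Ccr3, Cxcl1, Cxcl2 and Cxcl3), against 464 of 32851 windows of all genes, or 1.41%. The windows covered 44 of the 60 symbols. A match describes these letters only.

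In single cells most chemokine genes detected had their highest mean in the non-epithelial cells. Of 35 that reached 1 TPM in at least 1 cell (24 ligands and 11 receptors), 26 had their highest mean there. The others were highest in type A cells (4), principal cells (2), proximal tubule cells (2) and type B cells (1). The same share over all genes is not given here, so the count is a description of these genes only. A non-epithelial cell held a median of 9 of these genes at 1 TPM or more (5 to 15), while a type A, type B, principal or proximal tubule cell held 2, 1, 2 and 3. Their summed level had a median of 13514 TPM in non-epithelial cells and of 29.3, 4.06, 61.3 and 254 TPM in the epithelial types, in the same order. Cells without any of them at 1 TPM numbered 14 of 87 type A, 11 of 23 type B, 20 of 74 principal and 3 of 19 proximal tubule cells, and 0 of 32 non-epithelial cells.

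**Figure D1:**
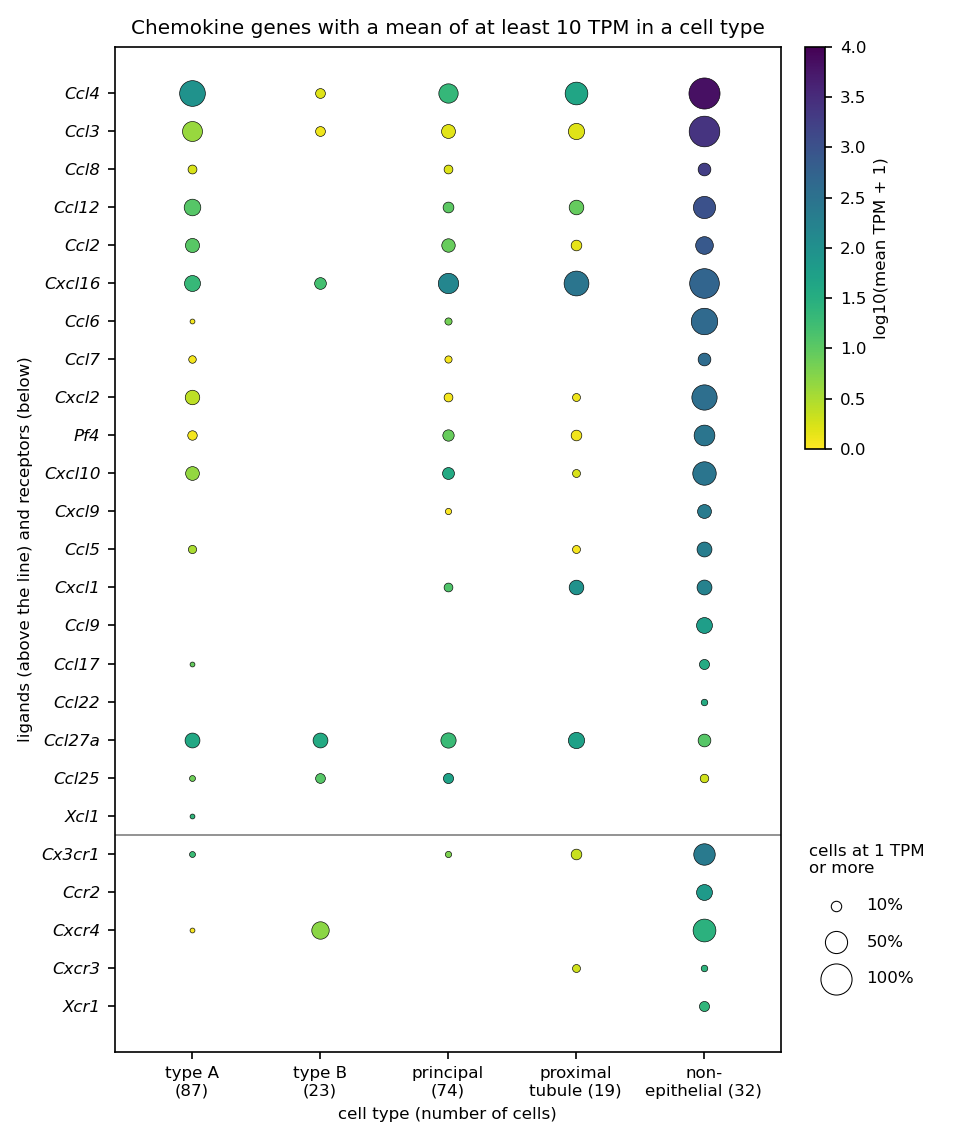
Mean level (colour, log10 of mean TPM + 1) and share of cells at 1 TPM or more (dot area) of chemokine genes that averaged 10 TPM or more in a cell type; columns are the 5 types with their cell numbers, rows the genes, with no dot where no cell reached 1 TPM. The non-epithelial column holds the darkest dots, led by Ccl4 with a mean of 6963 TPM, while Ccl27a and Ccl25 are higher in an epithelial column, and the type A dot of Xcl1 is 1 cell with T and NK cell genes.

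The most abundant ligands were Ccl4 and Ccl3, which attract monocytes and T cells. Ccl4 reached 1 TPM in 32 of 32 non-epithelial cells (exact Clopper-Pearson 95% interval 89.1% to 100%), with a mean of 6963 TPM and a median of 5647. Ccl3 did so in 31 of 32, with a mean of 2477 TPM and a median of 1844. Neither rested on 1 cell: without the top cell the means were 6402 and 2181 TPM. Ccl4 was also met in epithelial cells, in 59 of 87 type A cells (median 3.09 TPM), 28 of 74 principal cells, 10 of 19 proximal tubule cells and 2 of 23 type B cells. It reached 100 TPM in 7 type A cells (highest 3301 TPM), 2 principal cells (highest 1157 TPM) and 4 proximal tubule cells (highest 244 TPM), and the means of these types were 90.7, 20.7 and 42.9 TPM, or 53.4, 5.09 and 31.7 TPM without the top cell of each. The macrophage gene Cd74 reached 1 TPM in 68, 36, 12 and 3 cells of those types, and in 59, 27, 10 and 2 of the cells with Ccl4. Its part in the Ccl4 values was not tested. Among type A columns, Ccl3 reached 1 TPM in 26 of the first 37 and in 9 of the last 50 in column order, a split chosen after its values were seen. The principal cell gene Aqp2 did so in 9 and 49 of the same columns, Ccl2 in 6 and 11 and Cxcl16 in 10 and 12. The sources used here do not say what that order stands for.

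Monocyte attractants that act through Ccr2 formed a second group, held by fewer cells at very high level. Ccl12 reached 1 TPM in 16 of 32 non-epithelial cells, with a mean of 1007 TPM and 11743 TPM in the top cell, without which the mean was 661 TPM. Ccl2 did so in 10 cells (mean 798 TPM, or 475 without the top cell) and Ccl7 in 5 (mean 405 TPM). Ccl8, their neighbour on chromosome 11, reached 1 TPM in 5 cells with a mean of 1846 TPM, of which 1 cell with 55636 TPM made up nearly all: without it the mean was 111 TPM. The same cell was the top cell for Ccl7, Pf4, Cxcl9 and Cxcl10, and without it the Ccl7 mean was 60.1 TPM. At a level of 10 TPM, 13 cells held none of Ccl2, Ccl7, Ccl8 and Ccl12, 15 held 1 of them and 2 held all 4.

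Pf4, platelet factor 4, which macrophages make as well as platelets, was present at 1 TPM or more in 14 of 32 non-epithelial cells, with a mean of 277 TPM. Ccl6, a macrophage ligand of Ccr1, was more widespread, in 23 of 32 cells (mean 430 TPM, median 215). Ccl9, a relative of Ccl6, reached 1 TPM in 8 of 32 non-epithelial cells (mean 58.8 TPM) and in 0 of 203 epithelial cells, which allows a share of up to 1.48% (here and below, limits for a count of 0 are 3 cells of the total, not exact intervals). The neutrophil attractant Cxcl2 was found in 21 of 32 cells (mean 352 TPM). Its neighbour Cxcl1 was in 7 of 32 (mean 173 TPM) and also in 4 of 19 proximal tubule cells (mean 95.3 TPM) and 5 of 74 principal cells (mean 11.6 TPM). Without the top cell of each type these means were 99.3, 54.2 and 6.74 TPM. For Cxcl2, which has the paired promoter matches as well, the mean was 0.28 TPM in proximal tubule and 0.17 TPM in principal cells.

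Ligands of Cxcr3, which interferon is known to induce, were uneven. Cxcl10 was in 18 of 32 non-epithelial cells (mean 275 TPM) and Cxcl9 in 6 (mean 225 TPM), or 116 and 89.0 TPM without the top cell. In principal cells Cxcl10 had a mean of 36.5 TPM, and 1 cell at 2350 TPM carried it: without that cell the mean was 4.84 TPM. Ccl5, a T cell and monocyte attractant, reached 1 TPM in 7 of 32 non-epithelial cells with a mean of 211 TPM, or 9.51 TPM without 1 cell at 6459 TPM. Ccl17 and Ccl22, ligands of Ccr4 typical of some dendritic cells, stood at 1145 and 1099 TPM in 1 and the same non-epithelial cell, which also held Ccr2.

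Cxcl16, a membrane-bound ligand of Cxcr6 that also acts as a scavenger receptor, was shared by non-epithelial and epithelial cells. It reached 1 TPM in 29 of 32 non-epithelial cells (90.6%, exact interval 75.0% to 98.0%; mean 520 TPM). The proximal tubule cells followed with 12 of 19 (63.2%, 38.4% to 83.7%; mean 279 TPM) and the principal cells with 31 of 74 (41.9%, 30.5% to 53.9%; mean 146 TPM). Intercalated cells were lower, with 22 of 87 type A (25.3%, 16.6% to 35.7%; mean 19.9 TPM) and 3 of 23 type B cells (13.0%, 2.78% to 33.6%; mean 14.6 TPM). Without the top cell of each type the proximal tubule, type A and type B means were 174, 11.5 and 3.67 TPM. The intervals of neighbours in this order overlap. They cover counting error only. Of the 31 principal cells with Cxcl16, 19 also had Cd74 at 1 TPM or more. So did 8 of 12 proximal tubule, 19 of 22 type A and 1 of 3 type B cells with Cxcl16. Cxcl16 reached 100 TPM in 15 principal, 9 proximal tubule, 4 type A and 1 type B cells. Of those, 1, 3, 0 and 0 had Cd74 at that level. The part of macrophage RNA in the Cxcl16 values was not tested.

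The ligands with their highest mean in an epithelial type were few. Ccl27a, known from skin epithelium as a ligand of Ccr10, was found at a like share in every type: 19 of 87 type A (mean 39.5 TPM), 5 of 23 type B (35.5 TPM), 17 of 74 principal (18.4 TPM), 5 of 19 proximal tubule (50.1 TPM) and 5 of 32 non-epithelial cells (10.4 TPM). Without the top cell of each type the means were 33.3, 16.1, 11.4, 18.3 and 5.59 TPM in the same order, so the highest mean moved from proximal tubule to type A cells. Ccl27a has near-identical copies in the mouse genome, so reads may be divided between them and its level is uncertain. Ccl25, known from thymus and gut as the ligand of Ccr9, had its highest mean in principal cells, 47.8 TPM from 7 of 74 cells, or 26.5 TPM without the top cell. It was in 2 of 87 type A cells (mean 6.75 TPM), 2 of 23 type B cells (10.2 TPM) and 2 of 32 non-epithelial cells (0.95 TPM), with 0.12, 0.18 and 0.25 TPM without the top cell, and in 0 of 19 proximal tubule cells, which allows a share of up to 15.8%. Cx3cl1, fractalkine, is the membrane-bound ligand of Cx3cr1. It reached 1 TPM in 9 of 87 type A, 5 of 74 principal, 4 of 19 proximal tubule and 2 of 32 non-epithelial cells. Its means were 4.65, 6.42, 2.45 and 5.03 TPM in the same order, so only the principal cell mean exceeded the non-epithelial one. Cxcl12, the ligand of Cxcr4, reached 1 TPM in 1 type A and 2 proximal tubule cells.

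Some values in type A cells came from single columns. Xcl1, a ligand made by T and NK cells, was at 2039 TPM in 1 cell and at 0 in the other type A cells. That cell held the T and NK cell genes Cd3e, Cd3d, Cd3g and Klrb1c at 60.6, 90.6, 339 and 1070 TPM, while the intercalated cell genes Slc4a1, Kit and Foxi1 were at 0 and Atp6v1b1 was at 0.32 TPM. Ccr8, a receptor of T cells and some myeloid cells, was at 139 TPM in another. This second cell held the mast cell protease Cpa3 at 6459 TPM, Cx3cr1 at 1496 TPM and Ccl4 at 3301 TPM. Without it the type A mean of Cx3cr1 was 0.75 TPM in place of 17.9. The markers of the first column go against its type A name, and those of the second in part, since it held Slc4a1 at 33.9 TPM. Ccl17 at 691 TPM was in a further cell, which held Slc4a1 at 200.3 TPM and Atp6v1b1 at 511 TPM.

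Of the receptors, 9 reached 1 TPM in non-epithelial cells. Cx3cr1, the fractalkine receptor of resident macrophages, did so in 15 of 32 cells (mean 234 TPM, or 119 without the top cell) and Ccr2, which brings monocytes out of the blood, in 8 (mean 68.4 TPM). Ccr2 reached 1 TPM in 0 of 203 epithelial cells. Xcr1, a receptor of cross-presenting dendritic cells, was in 3 cells (mean 23.5 TPM, or 13.4 without the top cell), and Cxcr3 was at 801 TPM in 1 cell. Cxcr4, the receptor of Cxcl12, reached 1 TPM in 17 of 32 non-epithelial cells (mean 27.3 TPM, or 17.7 without the top cell). It was also in 7 of 23 type B cells (30.4%, exact interval 13.2% to 52.9%; mean 3.89 TPM) against 1 of 87 type A cells, 0 of 74 principal cells, which allows a share of up to 4.05%, and 0 of 19 proximal tubule cells. Most type B cells came from the PNA sort and the others from other sorts, so type and sort cannot be told apart here. Ptprc, the pan-leukocyte gene, reached 1 TPM in 0 of the 23 type B and 0 of the 19 proximal tubule cells. Of the macrophage and dendritic markers, Cd74 and H2-Ab1 did so in 3 type B cells each and C1qb in 2. Cd68 and Clec9a did so in 1 each. The part of leukocyte RNA in the Cxcr4 values was not tested.

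Within the non-epithelial cells, receptors and ligands divided the cells. At 10 TPM, Ccr2 was in 8 cells and Pf4 in 12, with 0 cells holding both. Ccl12 was in 13 cells, of which 8 also held Pf4 and 0 held Ccr2. The 3 cells with Xcr1 were all among the 8 with Ccr2. Ccl4 and Cxcl16 did not divide them: 8 of the 8 cells with Ccr2 held both. The non-epithelial cells came from different sorts, 4 from DBA, 18 from DBA with c-Kit and 10 from c-Kit. The sort of a single column is not known, and whether the division follows the sort was not tested. These counts are given as a description without a test.

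**Figure D2:**
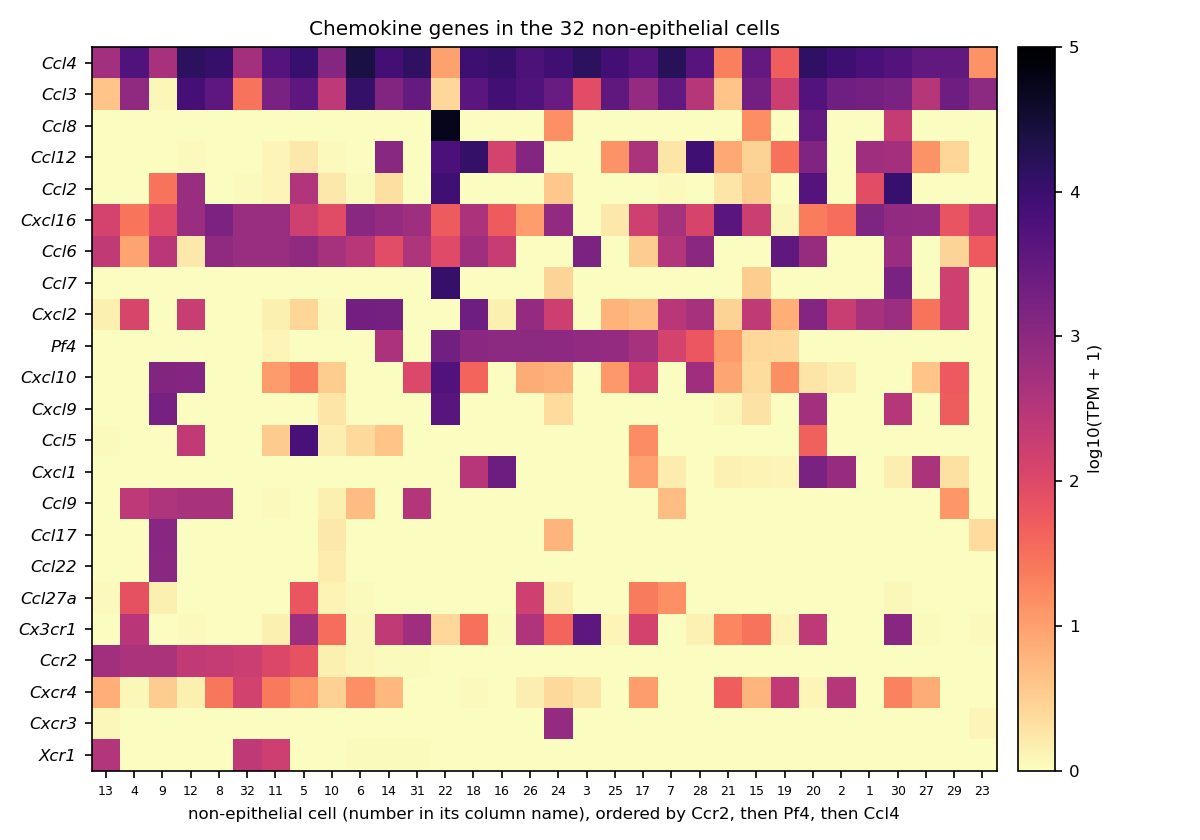
Level (log10 of TPM + 1, colour) of 23 chemokine genes (rows, ligands first) in each of the 32 non-epithelial cells (columns), ordered by Ccr2, then Pf4, then Ccl4. The 8 cells with Ccr2 at 10 TPM or more stand at the left and hold no Pf4 at that level, whereas Ccl4 runs through the columns.

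Ligands and receptors of a pair could be compared by the number of cells that held each. For Cxcl1 and Cxcl2 the receptor Cxcr2 was at 1 TPM in 0 cells of any type. Cxcr6, the receptor of Cxcl16, was in 1 non-epithelial cell and in the type A column with T and NK cell genes, and Ccl25 faced Ccr9 in 1 non-epithelial cell. Cx3cl1 was at 1 TPM in few cells of any type, and its receptor Cx3cr1 in 15 of 32 non-epithelial cells. Ccl2 and its receptor Ccr2 were at 10 TPM in 7 and 8 non-epithelial cells, of which 3 held both, whereas 0 of the 13 cells with Ccl12, another ligand of Ccr2, held Ccr2.

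The c-Kit and DBA fractions contrast cells sorted for c-Kit, a receptor of type A intercalated cells and also of mast and progenitor cells, with cells sorted for DBA, a lectin that binds collecting duct cells. Chemokine ligands were mainly lower in the c-Kit fraction, while the few receptors tested went both ways. All 4 type A and 4 type B markers were higher and all 8 principal cell markers lower in it. Of 34 chemokine genes tested, 4 were higher there and 20 lower (limma on log2(TPM + 1), adjusted p under 0.05 over all genes), or 70.6%, beside 44.3% of all 14341 genes tested. By direction, 16.1% of all genes were called higher and 28.1% lower. By class, 1 of 26 ligands was higher and 18 lower, and 3 of 8 receptors were higher and 2 lower. The median log2 difference, c-Kit minus DBA, was -0.81 over the chemokine genes tested and -0.11 over all genes. Passing the low-value filter depended on the level in either fraction, so these shares describe the genes that passed. In bulk samples, fewer cells of a type and less RNA per cell cannot be told apart.

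Macrophage ligands and receptors led the genes that were lower. Ccl8 had 1.55 and 2.75 TPM in c-Kit and 85.3 and 108 TPM in DBA samples (log2 difference -4.97, SE 0.21, adjusted p = 1.25e-05). Pf4 had 8.73 and 11.3 against 125 and 174 TPM (-3.76, SE 0.18, adjusted p = 1.96e-05). Ccl7 had 0.77 and 0.61 against 15.0 and 27.7 TPM (-3.67, SE 0.28, adjusted p = 0.000134). In all 3 the groups lay far apart. Ccl12 stood at 14.2 and 15.7 against 118 and 151 TPM (-3.08, SE 0.13, adjusted p = 1.25e-05). Cx3cr1, the receptor of Cx3cl1, had 7.64 and 11.7 against 56.3 and 56.5 TPM (-2.46, SE 0.18, adjusted p = 9.94e-05).

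The abundant Ccl4 and Ccl3 changed less. Ccl4 was at 124 and 149 TPM in c-Kit and 394 and 469 TPM in DBA samples (-1.65, SE 0.12, adjusted p = 8.77e-05), and Ccl3 at 49.2 and 46.0 against 155 and 172 TPM (-1.76, SE 0.08, adjusted p = 1.54e-05). Cxcl2 was at 4.3 and 4.6 against 21.5 and 30.6 TPM (-2.29, SE 0.18, adjusted p = 0.000145). Cxcl16 had the most even replicates of the set, 70.3 and 70.0 against 258 and 259 TPM (-1.87, SE 0.06, adjusted p = 4.70e-06). Among single cells its mean was also lower in type A than in principal cells. Cxcl10 was at 19.8 and 15.4 against 51.4 and 52.9 TPM (-1.53, SE 0.13, adjusted p = 0.000177), and Ccl6 at 48.7 and 47.8 against 80.1 and 92.6 TPM (-0.82, SE 0.09, adjusted p = 0.000524).

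Differences of under 1 on the log2 scale were also found for Cx3cl1, Ccl2, Cxcl12 and Cxcl9. Cx3cl1 was at 34.5 and 33.1 TPM in c-Kit and 55.2 and 51.9 TPM in DBA samples (-0.65, SE 0.08, adjusted p = 0.000910). Ccl2 was at 8.92 and 14.5 against 20.7 and 21.3 TPM (-0.83, SE 0.21, adjusted p = 0.0189), Cxcl12 at 8.27 and 5.51 against 13.2 and 11.3 TPM (-0.76, SE 0.20, adjusted p = 0.0210), and Cxcl9 at 8.51 and 8.00 against 11.7 and 11.9 TPM (-0.47, SE 0.13, adjusted p = 0.0228). The last 3 calls were lost without DBA replicate 1 (adjusted p = 0.139, 0.182 and 0.137) and without DBA replicate 2 (0.163, 0.115 and 0.156). Without c-Kit replicate 2, Cxcl12 had a log2 difference of -0.51 (adjusted p = 0.0667) and Cxcl9 one of -0.43 (adjusted p = 0.0623).

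Against that direction, Ccr2 was higher in the c-Kit fraction, at 26.5 and 28.4 TPM against 6.14 and 6.18 TPM (log2 difference 1.99, SE 0.11, adjusted p = 3.77e-05). The groups did not overlap. Xcr1 was at 10.2 and 6.64 against 0.49 and 0.32 TPM, and Cxcr3 at 8.77 and 4.67 against 2.39 and 2.86 TPM; both were called higher. Among single non-epithelial cells Ccr2 and Xcr1 were met together, and Pf4 and Ccl12 apart from them. The ligand Ccl27a was also higher, at 36.0 and 36.8 against 26.2 and 21.5 TPM (0.59, SE 0.11, adjusted p = 0.00601), a call lost without DBA replicate 2 (0.46, adjusted p = 0.0532). Ccl24, Ccl20, Cxcl14 and Cxcl13 were lower, all under 10 TPM. The other 10 genes tested were not called, among them Ccl25 at 12.9 and 11.2 against 10.0 and 11.5 TPM and Cxcr4 at 2.25 to 3.27 TPM.

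The marker lists moved as well. The summed macrophage and dendritic list was at 6866 and 6581 TPM in c-Kit and 18705 and 19419 TPM in DBA samples, with 9 of 14 genes lower and 2, Flt3 and Cd209a, higher. Both of those mark dendritic cells or their precursors, but other genes of the list met in dendritic cells did not follow them. Itgax (log2 difference -1.41) and H2-Ab1 (-1.28) were lower, and Clec9a was not called (0.96, limma adjusted p = 0.0611). The summed mast cell list was at 81.3 and 68.2 against 10.3 and 10.4 TPM and the neutrophil list at 58.8 and 79.9 against 6.50 and 8.55 TPM, so both sums were higher in c-Kit samples. Of the mast cell genes Cpa3, Tpsb2 and Cma1 were called higher and Ms4a2 lower, at a mean of 3.30 against 10.0 TPM. The proximal tubule list was at 1602 and 1437 against 3114 and 3206 TPM, with 6 of 7 genes lower, and 4 of 7 endothelial genes were lower, while Ptprc was at 37.7 and 34.0 against 72.8 and 73.8 TPM. Mcpt4 was at 0 in the DBA samples. The part of these cell types in the chemokine values was not tested. Of the other pathway genes, atypical and related receptors had 1 of 7 higher (Mif) and 6 lower, signalling genes 0 of 9 higher and 8 lower, and inducers such as Tnf and Il1b 0 of 10 higher and 7 lower.

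The GFP fractions compare cells that carry the fluorescent label of the Atp6v1b1GFP strain with cells that do not. Higher in GFP-positive cells were the 13 intercalated cell markers (4 of type A, 4 of type B and 5 of both), 7 of 8 principal cell markers and all 5 markers of the distal convoluted and connecting tubule. The chemokine genes called were lower in GFP-positive cells, with 1 exception. Of 39 tested, 1 was higher and 21 lower (edgeR quasi-likelihood test, adjusted p under 0.05 over all genes), or 56.4%, beside 32.6% of all 15671 genes. Over all genes 15.2% were called higher and 17.3% lower. The median log2 difference, GFP-positive minus GFP-negative, was -2.99 over the chemokine genes tested, or -2.69 with the 3 genes at 0 in both GFP-positive libraries set at their bound, against 0.02 over all genes. Both ligands (15 of 26 lower) and receptors (6 of 13 lower) were among them. Levels here are counts scaled to the library's reads in genes (CPM), which are not corrected for gene length and are compared only within a gene.

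Ccl3 was at 142 and 26.9 CPM in GFP-negative and 3.01 and 2.87 CPM in GFP-positive libraries (log2 difference -4.86, SE 0.65, adjusted p = 0.000688). Ccl4 was at 69.7 and 15.2 against 1.24 and 1.63 CPM (-4.90, SE 0.63, adjusted p = 0.000578). The groups did not overlap, but the GFP-negative replicates were themselves several-fold apart. Ccr2 was at 16.3 and 4.04 against 1.24 and 0.54 CPM (-3.55, SE 0.68, adjusted p = 0.00477), and the neutrophil attractant Cxcl2 at 53.4 and 12.1 against 2.42 and 2.84 CPM (-3.66, SE 0.58, adjusted p = 0.00172). Without GFP-negative replicate 1, the higher of the pair, the log2 differences were -3.40 for Ccl3, -3.60 for Ccl4, -2.40 for Ccr2 and -2.40 for Cxcl2, and all 4 remained called. Cxcl1, the neighbour of Cxcl2, was at 84.2 and 36.8 against 6.53 and 7.45 CPM (-3.16, SE 0.34, adjusted p = 0.000229), and -2.60 without that replicate.

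Ligands of tissue cells differed less. Cxcl12 was at 55.2 and 44.7 CPM in GFP-negative and 26.6 and 15.5 CPM in GFP-positive libraries (-1.34, SE 0.27, adjusted p = 0.00569). Ccl28, a ligand of Ccr10 made by mucosal and duct epithelium, was at 33.6 and 18.1 against 14.6 and 7.37 CPM (-1.30, SE 0.36, adjusted p = 0.0256). This call was lost without GFP-negative replicate 1 (-0.93, adjusted p = 0.0825) and without GFP-positive replicate 2 (-0.90, adjusted p = 0.0983). Cx3cl1 was the gene that was higher, at 57.2 and 51.6 against 34.2 and 32.9 CPM (0.61, SE 0.19, adjusted p = 0.0389). Its groups did not overlap, yet the call was lost whichever library was left out, with adjusted p from 0.0776 to 0.192. Cxcl16 was not called, at 58.2 and 92.5 CPM in GFP-positive and 67.5 and 35.6 CPM in GFP-negative libraries (0.49, adjusted p = 0.236); without GFP-negative replicate 1 it was (0.88, adjusted p = 0.0432).

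The other 13 genes called lower had means under 10 CPM in both fractions. They included Ccl2, Ccl12, Pf4, Cx3cr1, Xcr1, Cxcl9 and the neutrophil receptor Cxcr2. Ccr1, Ccl8 and Ccl7 had 0 reads in both GFP-positive libraries and were at least 20.2-fold, 11.9-fold and 6.45-fold lower there, against a floor of 3 counts per library. Among genes not called, Cxcr4 was at 52.3 and 9.58 CPM in GFP-negative and 21.4 and 15.5 CPM in GFP-positive libraries, with overlapping groups. Ccl27a was at 8.99 and 7.83 against 10.2 and 8.60 CPM and Ccl25 at 6.52 and 4.10 against 5.91 and 3.99 CPM, with overlapping groups for both.

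Markers of leukocytes and other cells moved in the same libraries. The summed macrophage and dendritic list was at 1538 and 575 CPM in GFP-negative and 133 and 130 CPM in GFP-positive libraries, with 10 of 13 genes lower. All 4 neutrophil and all 7 endothelial markers tested were lower. The mast cell markers had 0 reads in GFP-positive libraries, but their sum was only 0.39 to 0.50 CPM in GFP-negative libraries. Of these 5 markers 0 passed the filter to be tested. All 7 proximal tubule markers were lower too, with a sum of 16192 and 14406 CPM in GFP-negative and 3070 and 1875 CPM in GFP-positive libraries, as were 5 of 8 fibroblast and pericyte markers. GFP-negative replicate 1 exceeded replicate 2 for Ptprc too, at 66.2 against 15.8 CPM, while GFP-positive libraries had 13.1 and 15.5 CPM. The part of these cells in the chemokine differences was not tested. Of the other pathway genes, 5 of 8 atypical and related receptors, 7 of 9 signalling genes and 2 of 11 inducers (Tnf and Il1b) were lower, and 0 were higher.

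**Figure D3:**
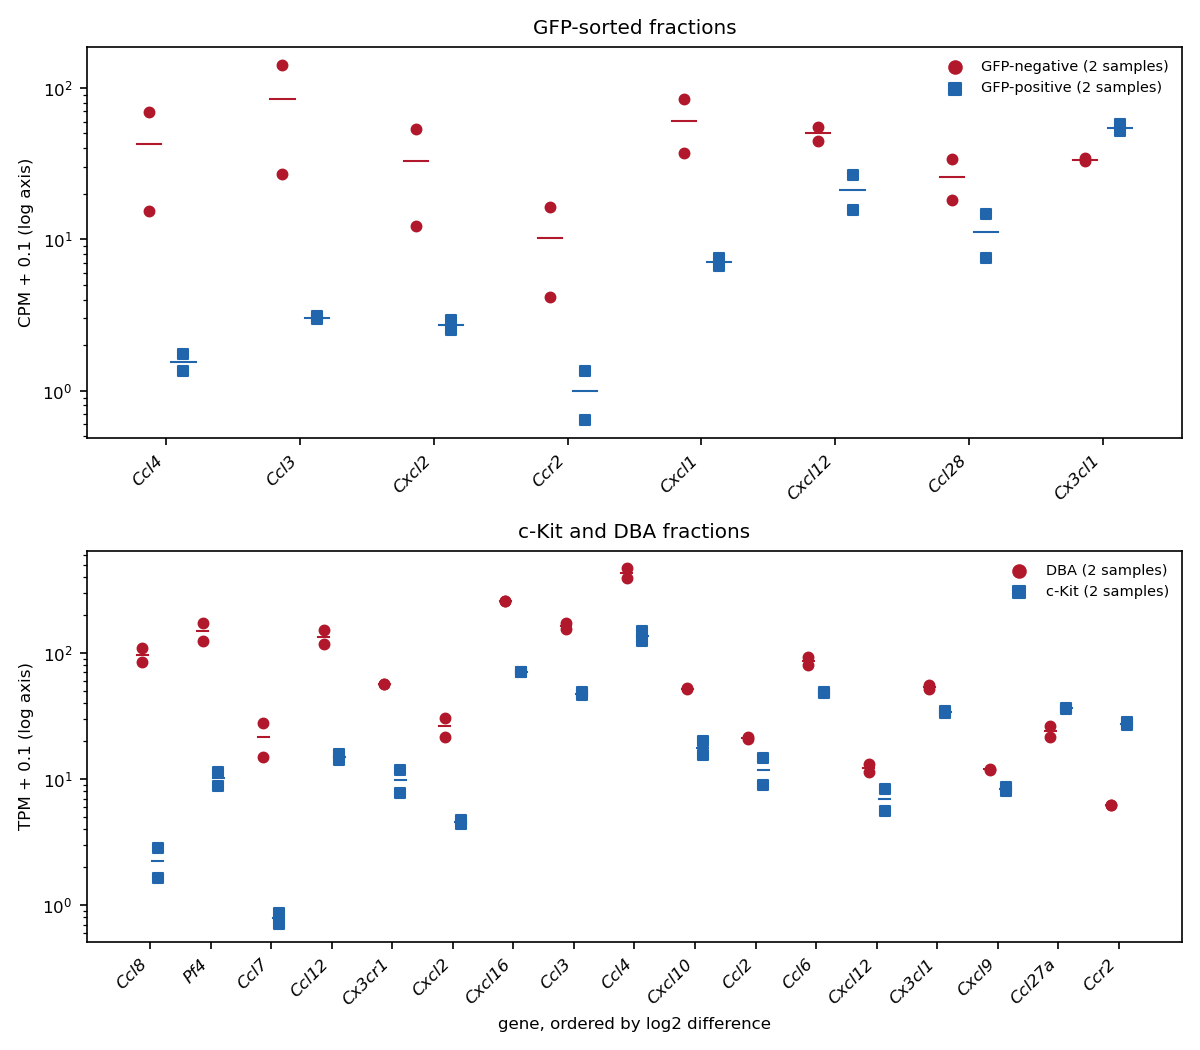
Level, on log axes, of chemokine genes that were called and averaged 10 CPM or 10 TPM or more in 1 of the 2 fractions: GFP-sorted libraries in CPM + 0.1 (upper panel) and c-Kit and DBA samples in TPM + 0.1 (lower panel). Points are samples and short lines group means; Cx3cl1 in the upper and Ccl27a and Ccr2 in the lower panel are the genes with blue squares above red circles.

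The 2 sorted comparisons share no sample. Of the genes called in each, 15 were called in both, 68.2% of the 22 GFP calls and 62.5% of the 24 c-Kit and DBA calls. Over all genes, matched by symbol, 2622 were called in both, 51.4% of the GFP and 41.3% of the c-Kit and DBA calls, of which 45.2% were lower in both. Of the 15 chemokine genes, 12 were lower in GFP-positive cells and in the c-Kit fraction, among them Ccl2, Ccl3, Ccl4, Ccl7, Ccl8, Ccl12, Cxcl2, Cxcl9, Cxcl12, Pf4 and Cx3cr1. The other 3 moved in opposite directions. Ccr2 and Xcr1 were lower in GFP-positive cells and higher in the c-Kit fraction, and Cx3cl1 the reverse. By cluster, 4 of 5 genes tested of the Ccl2 cluster were lower in GFP-positive cells and 4 of 4 were lower in c-Kit samples. In the cluster of Ccl5 to Ccl4, 3 of 5 were lower in each. In that of Pf4, Cxcl1 and Cxcl2, 3 of 3 and 2 of 3 were lower. Beside this, 21 of 39 and 20 of 34 chemokine genes tested were lower, and 17.3% and 28.1% of all genes.

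Single tubules held fewer of these genes. As a check of the labels, all 8 principal cell markers were higher in CCD and all 5 thick ascending limb markers lower. In CCD and cTAL together 44 of the 60 were above 0, and 13 passed the filter of a mean of 1 TPM. Of those, 2 were higher in CCD and 1 lower (limma on log2(TPM + 1), adjusted p under 0.05), or 23.1%, beside 18.7% of all 13520 genes (13.2% higher and 5.50% lower), so the share called was near that of all genes. The median log2 difference, CCD minus cTAL, was 0.57 over the 13 and 0.31 over all genes. With quantile normalization the median of all genes was -0.03 and the calls were 1 higher and 1 lower. The CCDs had 7621 to 14004 genes at 1 TPM or more and the cTALs 8094 to 12385.

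Cxcl12 was the clear difference. The 11 CCDs had 0.25 TPM at the lowest, 7.34 at the median and 28.6 at the highest, and the 8 cTALs 26.1, 87.8 and 130 TPM. The groups overlapped only in that 1 CCD exceeded the lowest cTAL. The log2 difference was -3.37 (SE 0.49, adjusted p = 1.42e-05), and Cxcl12 was called under every alternative run. Thick ascending limb cells are not among the types of the single cells, of which 3 of 235 held Cxcl12 at 1 TPM.

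Cx3cl1 had 2.75, 21.5 and 27.7 TPM in CCDs and 0.13, 46.5 and 68.8 TPM in cTALs. Apart from the cTAL at 0.13 TPM, the lowest cTAL had 35.8 TPM, above every CCD. The log2 difference over all tubules was -0.68 (SE 0.61, adjusted p = 0.504). The tubule at 0.13 TPM had the fewest detected genes of the cTALs, 8094, and without it the difference was -1.36 (adjusted p = 0.00737). Without the 4 tubules under 10000 detected genes it was -1.19 (adjusted p = 0.000613). Both alternatives were chosen after the values were seen.

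Cxcl16 was among the most abundant in both, with 57.1, 87.8 and 181 TPM in CCDs and 21.4, 49.7 and 106 TPM in cTALs (log2 difference 0.69, SE 0.28, adjusted p = 0.0878). The groups overlapped. Its call appeared without the 4 tubules under 10000 detected genes (0.68, adjusted p = 0.0143). Ccl27a was even, at 21.7, 44.2 and 71.9 TPM against 27.5, 48.0 and 91.0 TPM (adjusted p = 0.410), and Ccl25 variable, from 0 to 27.9 TPM in CCDs and 0 to 51.9 TPM in cTALs (adjusted p = 0.649).

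Higher in CCD were Pf4 and Cxcl17, both at low level. Pf4 reached 1 TPM in 7 of 11 CCDs, with a maximum of 19.4 TPM, and in 1 of 8 cTALs (log2 difference 2.00, SE 0.55, adjusted p = 0.0121). Cxcl17, a mucosal chemokine, reached it in 6 of 11 CCDs, with a maximum of 10.1 TPM, and in 0 of 8 cTALs (1.53, SE 0.52, adjusted p = 0.0441). In single cells Cxcl17 reached 1 TPM in 1 type A cell. Without the 4 tubules under 10000 detected genes neither was called (1.68 for both, adjusted p = 0.0720 and 0.0738), and Cxcl17 was lost without the cTAL with the fewest genes too (1.53, adjusted p = 0.0632). The Cxcl17 call held in 5 of 11 alternatives: it was also lost without a low-value filter (adjusted p = 0.111), with a pseudocount of 5 (0.0504), with quantile normalization (0.131) and with a replicate block (0.122). Cxcr4, the receptor tested here, reached 1 TPM in 8 of 11 CCDs (median 2.19, maximum 5.59 TPM) and 1 of 8 cTALs (1.17, SE 0.44, adjusted p = 0.0681). Without the CCD with the fewest genes it was called (1.29, adjusted p = 0.0345). Among the epithelial single cells, Cxcr4 was met in 7 type B cells and 1 type A cell.

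Macrophage and dendritic markers were present in both segments, with all 14 above 0 in at least 1 tubule of each. Their sum was 156, 485 and 812 TPM (lowest, median, highest) in CCDs and 83.4, 311 and 950 TPM in cTALs, and 0 of 9 tested were called. Of the 6 platelet and megakaryocyte markers Itga2b could be tested, and it was higher in CCD. In single cells Itga2b reached 1 TPM in 10 type A, 5 type B and 9 principal cells and the other 5 markers in 0 cells of any type. Of the other pathway genes, Ackr3, an atypical receptor that takes up Cxcl12, and Mif were higher and Rarres2 lower among 7 tested. Of the signalling genes 2 of 6 (Gnai2 and Dpp4, a peptidase that trims Cxcl12) and of the inducers 1 of 8 (Nfkbia) were higher, and 0 were lower.

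**Figure D4:**
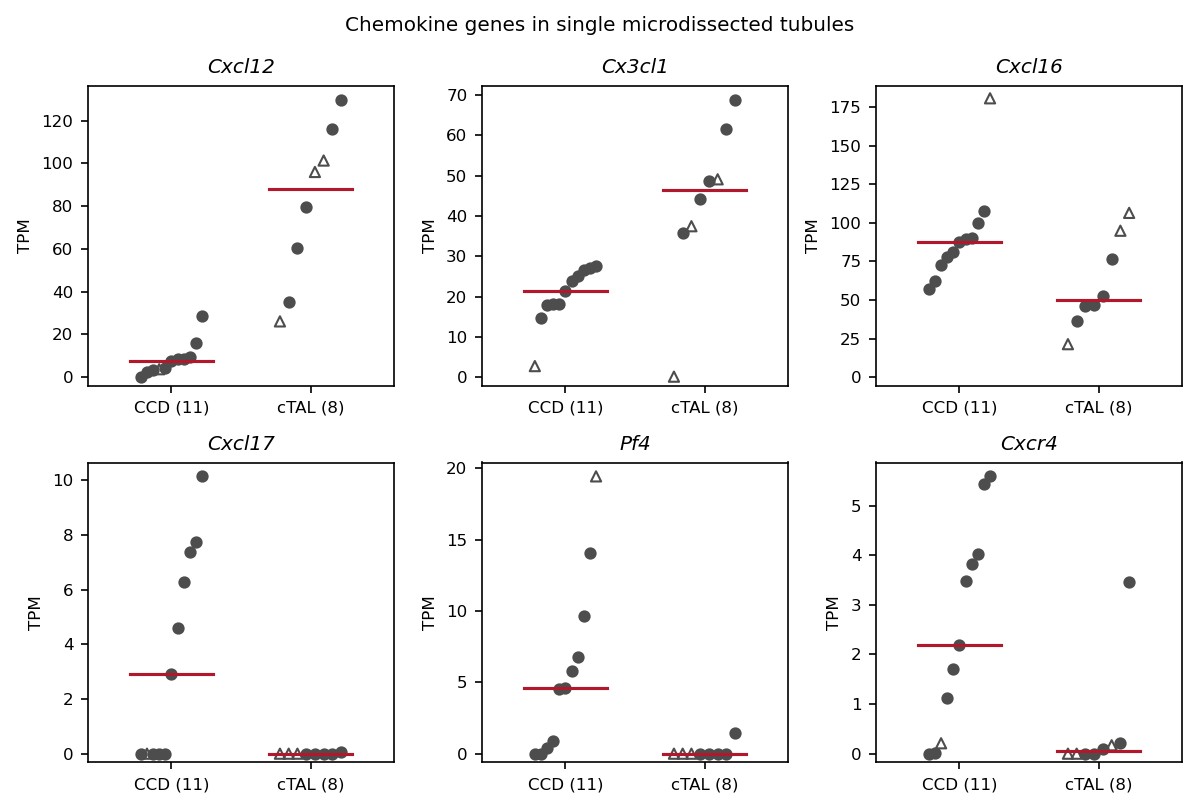
Level in TPM of 6 chemokine genes in each of 11 CCDs and 8 cTALs; red lines are medians and open triangles the 4 tubules with under 10000 detected genes. Cxcl12 has a median of 7.34 TPM in CCDs and 87.8 TPM in cTALs, and Cx3cl1 separates the segments except for 1 cTAL at 0.13 TPM.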

How the data were processed

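Per the submitters' processing notes, reads were handled with STAR 2.5.1b, RSEM 1.2.31 and Seurat and the build was GRCm38.p5. The deposited names of the GFP data give RefSeq as annotation, and that of the counts gives HTSeq-count. Otherwise no source says which tool made which table. The authors deposited TPM for tubules, for c-Kit and DBA samples and for each cell, and read counts and RPKM for the GFP fractions. TPM and RPKM files keep no depth, so the depth behind these values is unknown. In the deposited counts, 66.7% to 72.8% of reads per library stood in rows that name no gene and were left out of library sizes and tests. Groups came from the labels. A gene with several rows kept all of them in the fits.

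The whole count table was fitted with edgeR 4.0.16 (TMM, filterByExpr, quasi-likelihood F test), and each TPM table with limma 3.58.1 (trend) on log2(TPM + 1) for genes averaging 1 TPM or more, on R 4.3.3. Fold changes on that scale understate those of low genes. P-values were adjusted by Benjamini-Hochberg over all genes tested and called under 0.05. Tables were normalized separately and are not joined. In single cells, a gene was counted in a cell at 1 TPM or more, with no doublet caller and no further filter. The procedures were tested on simulated data. Full values are given for genes called that averaged 10 CPM or 10 TPM in 1 group and, in single cells, 10 TPM in a type; others are given by level or count. The genes and marker lists were chosen with earlier results of these data known. Alternatives were DESeq2 1.42.0, other normalizations, pseudocounts and filters, the RPKM table, a replicate block, sample weights and left-out samples. Counts cover all genes of the set; the values of 1 of them are not reported here.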

Additional observations from a re-analysis of the deposited data

Results flagged for a closer look

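Of the 13 chemokine genes tested in tubules, 5 had 1 cTAL far from the other 7, by a gap test that chance meets in about 1 in 20 groups of normally distributed values. That rate does not hold for Ccl4, Pf4 and Cxcl17, where the other 7 cTALs were at 0 and any value above 0 meets the test. Cx3cl1 was at 0.13 TPM in 1 cTAL and at 35.8 TPM or more in the others. Cxcr4 was at 3.47 TPM in 1 cTAL, with the next at 0.22 TPM. Ccl4 at 0.31 TPM and Pf4 at 1.47 TPM were highest in the same cTAL, and Cxcl17 at 0.07 TPM in another, with all the others at 0.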

How the results depend on the processing

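An alternative value counted as unchanged where a gene called stayed called, or a gene not called stayed so, in the same direction. Of the named genes, 88 alternative values were unchanged in the GFP comparison, 11 lost the call and 1 gained it. In the c-Kit and DBA comparison 182 were unchanged and 15 lost the call. In tubules 77 were unchanged, 7 lost the call and 8 gained it, with genes not called in the main fit among the unchanged. The call was kept in 12 of 12 alternatives for Cxcl12, 10 of 11 for Pf4 and 5 of 11 for Cxcl17. The 1 reversal was Ccl25 in tubules, not called, at -0.19 without the tubules under 10000 detected genes. With RPKM in place of counts 7 of 26 genes tested were called in the GFP fractions, and the calls of Ccl28, Ccr2, Cx3cl1 and Cxcl2 were lost (adjusted p 0.0658 to 0.429); the cause was not tested. In tubules a 10 TPM filter left 1 call and sample weights gave 6; the first tests fewer genes, and for the second the cause was not tested. Leaving out 1 library gave 16 to 28 calls in the GFP and 16 to 25 in the c-Kit and DBA comparison; the lone sample of a group was then assumed to vary like the other group.

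A replicate block gave 24 calls in the GFP comparison, 26 in c-Kit and DBA, and 3 in tubules by header number (chosen after seeing the data), where Cxcl17 was lost (adjusted p = 0.122) and Cxcl16 gained (0.0130). Equal numbers deviated together with r = 0.18 in the GFP, 0.03 in the c-Kit and DBA and 0.04 (median) in the tubule table. The RPKM headers of the GFP data name experiments. The difference between these experiments went with that between count replicates 1 and 2, at r = 0.43 in GFP-negative and 0.40 in GFP-positive cells. Equal GFP numbers may thus share an experiment, which the main fit left out and the block took in. The other samples were treated as sharing only a number. The tubule columns carry no running number of the titles, so that block was not run. Fits without named tubules were added after seeing the data.

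In single cells the genes highest in each type depended on the summary. By median TPM 10 were highest in non-epithelial cells and 0 in every other type. Principal cells had 4 without the top cell of each type (added after seeing the data), 1 by mean log2(TPM + 1) and 1 by share of cells; proximal tubule cells had 1 without the top cell and 4 by share, and type B cells 0 without the top cell. With any TPM above 0, 38, 25, 33 and 28 genes were detected in type A, type B, principal and proximal tubule cells, and 34 in non-epithelial cells. At 1 TPM or more these counts were 25, 7, 19, 16 and 29, so the type with the most genes changed with the threshold.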
